A study of Homo sapiens with 36 samples.

Results

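Androgen-metabolizing enzymes make, convert, conjugate or inactivate the male sex steroids. All 10 enzyme genes chosen by symbol, UGT2B11, UGT2B15, UGT2B17, UGT2B28, AKR1C3, SRD5A1, SRD5A3, HSD3B1, HSD17B2 and HSD17B4, were found among 27852 genes with a symbol in the deposited transcript table. They were measured by poly(A) RNA sequencing in 36 libraries of 4 human prostate cancer (PCa) cell lines. C4-2 and C4-2B, both derived from the LNCaP line, stood for osteoblastic PCa (BPCa), and DU145 and 22Rv1 for osteolytic PCa (LPCa). Each line was grown in 4 cultures and RNA was taken on day 5: mono-culture without RANKL (n = 3 libraries a line), co-culture with MG63 cells (n = 2), mono-culture with 50 ng/mL RANKL (n = 2), and co-culture with RAW264.7 cells plus 50 ng/mL RANKL (n = 2). MG63 cells come from a human osteosarcoma and stand in for osteoblasts. RAW264.7 cells are mouse macrophages that can become osteoclasts under RANKL. Both partners sat behind a filter in a horizontal co-culture chamber, and all cultures shared αMEM with serum. The study asked what PCa cells express when they exchange medium with bone-resident cells. Each phenotype is represented by 2 cell lines, of which the BPCa pair is related by descent. The labels do not say whether libraries of a group came from separate cultures, so p-values measure the spread between libraries only.

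Testosterone and dihydrotestosterone are the main active androgens. Prostate cancer cells can make them from adrenal precursors: HSD3B1 carries dehydroepiandrosterone toward androstenedione, AKR1C3 reduces androstenedione to testosterone, and SRD5A1 converts testosterone or its precursors to 5α-reduced androgens. UGT2B15 and UGT2B17 attach glucuronic acid to these androgens, which makes them inactive and soluble, and HSD17B2 oxidizes testosterone back to androstenedione.

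Depth differed between the cultures. Mono-cultures without RANKL held 23932472 to 36719047 estimated counts a library, and the other 24 libraries 9593426 to 15418211, a ratio of medians of 2.46. Depth and culture cannot be told apart in any comparison with these mono-cultures. Levels are given as CPM, estimated counts scaled to a library total of 1e6, and levels of different genes are compared only as TPM, which also divides by transcript length. A count of 3 or fewer was read as not detected, which is 0.0817 to 0.125 CPM in the deeper mono-cultures and 0.195 to 0.313 CPM in the other libraries. Such limits cover counting error only. The epithelial markers KRT8, KRT18, EPCAM and CDH1 were found above that floor in all 36 libraries. Over all lines, the 7 markers of MG63 cells summed to 2.83 to 10.6 CPM in the MG63 co-cultures and to 2.69 to 8.94 CPM in mono-culture with no RANKL. By line, 22Rv1 was higher with MG63 cells, at 9.38 to 10.6 against 5.41 to 8.94 CPM. C4-2B was lower, at 2.83 to 4.24 against 4.77 to 4.95 CPM, and the ranges of C4-2 and DU145 overlapped. POSTN was above the floor in 1 of 36 libraries. The human genes of the 7 macrophage markers summed to 11.04 to 64.6 CPM with RAW264.7 cells and to 11.9 to 66.4 CPM in the mono-cultures with RANKL.

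The 4 UGT2B genes lie on chromosome 4 (GRCh38, GENCODE release 29): UGT2B17 at chr4:68537184-68568527 on the minus strand, UGT2B15 at chr4:68646630-68670628 on the minus strand, UGT2B11 at chr4:69199951-69214731 on the minus strand, and UGT2B28 at chr4:69280499-69295050 on the plus strand. The deposited table holds transcripts without coordinates, so no value rests on these positions. The coding sequences form 2 close pairs. UGT2B15 and UGT2B17 matched at 1538 of 1593 coding bases (96.5%), and UGT2B11 and UGT2B28 at 1543 of 1590 (97%). Across pairs the identity was 83.7% to 84.9%. The first 90 coding bases show how little separates the pair members. Capitals mark bases that differ from UGT2B15.
UGT2B15: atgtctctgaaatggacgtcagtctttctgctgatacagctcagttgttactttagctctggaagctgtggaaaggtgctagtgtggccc
UGT2B17: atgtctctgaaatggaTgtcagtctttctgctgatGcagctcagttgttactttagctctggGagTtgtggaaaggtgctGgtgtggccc
UGT2B11: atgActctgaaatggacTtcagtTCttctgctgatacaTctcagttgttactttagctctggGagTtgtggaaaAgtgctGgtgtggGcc
UGT2B28: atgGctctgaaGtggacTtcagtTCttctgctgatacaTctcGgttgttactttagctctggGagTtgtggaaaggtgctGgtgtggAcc
In this stretch UGT2B17 differed from UGT2B15 at 5 bases, UGT2B11 at 10 and UGT2B28 at 11. Of the words of 31 bases in UGT2B15 transcripts, 37.1% also occurred in UGT2B17, and of those in UGT2B28 40.3% occurred in UGT2B11. Reads from such stretches are divided by the estimation and not observed for 1 gene. The other members shared fewer words with other genes: 7.17% for AKR1C3, mainly with AKR1C2 and AKR1C1, 13.7% for HSD3B1, and 5.18% or less for SRD5A1, SRD5A3, HSD17B2 and HSD17B4.

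Per length, the most abundant member differed by line. In the mono-cultures without RANKL, AKR1C3 led in DU145 cells at 32.3 ± 5.94 TPM (SD, n = 3), ahead of SRD5A3 at 17.1 ± 1.15 TPM. SRD5A3 led in the other lines, at 30.2 ± 2.25 TPM in 22Rv1, 29.3 ± 2.54 TPM in C4-2 and 33.7 ± 4.24 TPM in C4-2B cells. Of the conjugating enzymes in 22Rv1 cells, UGT2B15 reached 7.08 ± 1.197 TPM and UGT2B11 5.04 ± 0.461 TPM. The plot of all members by line and culture shows these levels in CPM.

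**Figure D1:**
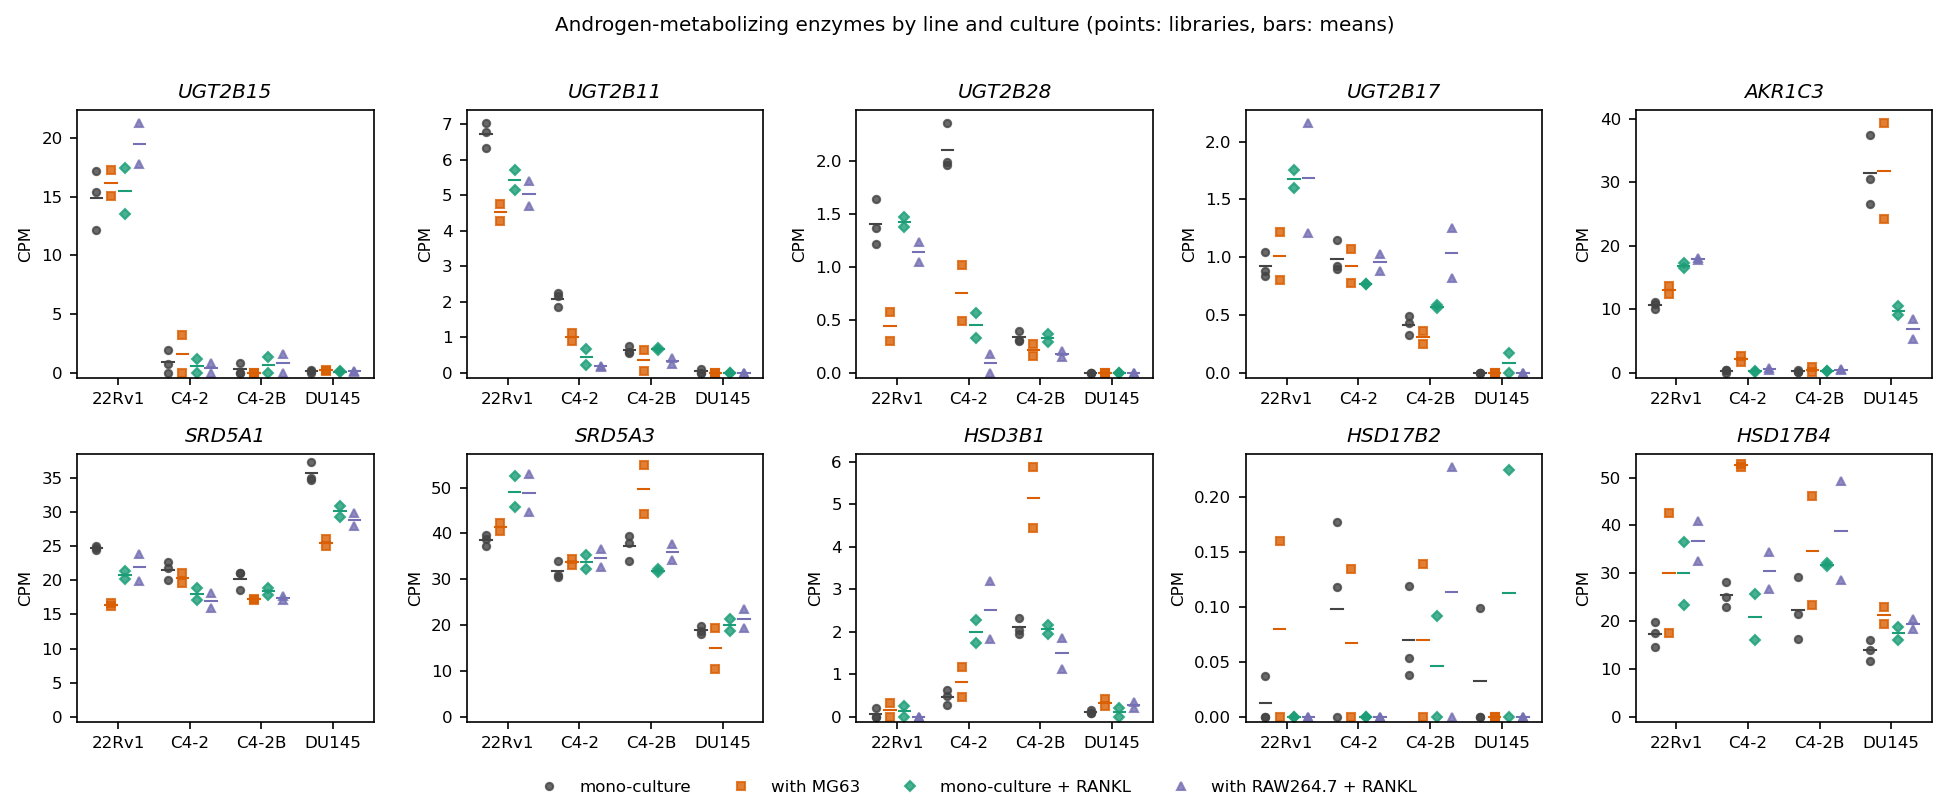
Level of each of the 10 enzyme genes in CPM (y axis, linear, own scale per gene) in the 4 lines (x axis). Each point is 1 library, coloured by culture, and each short bar is the group mean. UGT2B15 sits between 12.2 and 21.3 CPM in all 9 libraries of 22Rv1 and at most at 3.22 CPM elsewhere, and AKR1C3 in DU145 falls into a high set without RANKL and a low set with RANKL.

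Of the 10 members, 6 passed the filter of 100 counts in at least 1 library of the comparisons without RANKL: UGT2B11, UGT2B15, AKR1C3, SRD5A1, SRD5A3 and HSD17B4. A gene that passed only through the line where it is high had to differ between lines, so the counts that follow describe the lines and are no test of the list. A gene was called when it differed by more than 2-fold with a Benjamini-Hochberg adjusted p under 0.05 in edgeR's quasi-likelihood test. Between mono-cultures, 4 of 6 members were called for DU145 against 22Rv1, where 39.7% of all 13437 genes tested were called. For DU145 against C4-2B, 3 of 6 were called (40% of all genes), and for DU145 against C4-2, 2 of 6 (39%). For 22Rv1, 3 of 6 were called against C4-2 (28.5% of all genes) and 3 of 6 against C4-2B (29.4%). Of these, the UGT2B15 call against C4-2 was lost by DESeq2 (log2 4.02, adjusted p = 0.0762). The closely related C4-2B and C4-2 differed in 1 of 6 members, UGT2B11 (2.25% of all genes).

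The sum of the conjugating UGT2B genes was highest in 22Rv1 cells and near the floor in DU145 in every culture. C4-2 lay above C4-2B without RANKL, at 6.08 ± 1.38 against 1.65 ± 0.626 CPM in mono-culture (SD, n = 3), and not with it, at 2.23 ± 1.28 against 2.21 ± 0.917 CPM with RANKL alone and 1.65 ± 0.555 against 2.35 ± 1.29 CPM with RAW264.7 cells (SD, n = 2). UGT2B15 and UGT2B11 carried the lead of 22Rv1, while mono-cultured C4-2 had more UGT2B28 than 22Rv1 (2.11 ± 0.224 against 1.41 ± 0.215 CPM, SD, n = 3) and like levels of UGT2B17 (0.986 ± 0.141 against 0.918 ± 0.107 CPM). Summed over the 4 members, the 9 libraries of each line had a lowest, median and highest level of 21.5, 23.8 and 28.98 CPM in 22Rv1, of 1.26, 3.13 and 7.48 CPM in C4-2, of 0.459, 1.44 and 3.26 CPM in C4-2B, and of 0.0685, 0.163 and 0.271 CPM in DU145. The ranges of 22Rv1 and DU145 did not overlap with those of any other line, and those of C4-2 and C4-2B overlapped. With all UGT2B genes of the table summed into 1 feature, which removes the division of shared reads, mono-cultured 22Rv1 exceeded C4-2 by 2.10 on the log2 scale (SE 0.23, adjusted p = 4.13e-07). Without RANKL, mono-cultured C4-2B was lower than C4-2 by this sum, with a log2 difference of -1.66 (SE 0.26, adjusted p = 0.000362).

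UGT2B15, which glucuronidates dihydrotestosterone and its metabolites, was read steadily in 22Rv1 cells. It stood at 15.4, 12.2 and 17.2 CPM in the mono-cultures, 15.1 and 17.3 CPM with MG63 cells, 13.6 and 17.5 CPM with RANKL, and 17.8 and 21.3 CPM with RAW264.7 cells. These groups overlapped, apart from the RAW264.7 co-cultures, whose 2 libraries were the highest. In C4-2 cells the libraries of 1 group disagreed. The mono-cultures gave 0.749, 1.96 and 0 CPM, and the MG63 co-cultures 3.22 and 0.00486 CPM. UGT2B15 was above the floor in 5 of 9 libraries of C4-2, in 3 of 9 of C4-2B and in 2 of 9 of DU145. Its near copy UGT2B17 stood at 0.777 and 1.07 CPM in the same MG63 co-cultures of C4-2. The fitted log2 change of UGT2B15 with MG63 cells in C4-2 was 0.96 with an SE of 1.18 (adjusted p = 0.69), so neither direction could be read at this spread.

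UGT2B11 is a less studied member of the same enzyme family. In C4-2 cells it stood at 2.17, 2.24 and 1.84 CPM in the mono-cultures, 0.890 and 1.13 CPM with MG63 cells, 0.657 and 0.218 CPM with RANKL, and 0.170 and 0.197 CPM with RAW264.7 cells. In bulk RNA, fewer cells that express a gene and less RNA per cell cannot be told apart. All 6 libraries of the other cultures lay below the 3 mono-cultures without RANKL. In counts, the mono-cultures without RANKL held 72.9, 62.1 and 58.1, and those with RANKL 8.79 and 2.37. The second RANKL library and both RAW264.7 libraries thus lay under the floor, so no fold is given. The gene passed the filter through 22Rv1, and its highest count in C4-2 was 72.9. With RANKL the gene fell by 2.11 on the log2 scale (SE 0.49, edgeR adjusted p = 0.00386). It was the 1 member of 6 called there, against 2.27% of all 13454 genes. Without the library C4-2 RANKL mono-culture 2 the value was -1.53 and no longer called (adjusted p = 0.089). With counts scaled by transcript length it was -1.76 and not called either (adjusted p = 0.298). The change of -0.93 with MG63 cells did not pass (SE 0.43, adjusted p = 0.21), and against the mono-cultures with RANKL it turned to 1.19 (SE 0.58, adjusted p = 0.228).
C4-2B cells had 0.590, 0.756 and 0.539 CPM of UGT2B11 in mono-culture and 0.688 and 0.639 CPM with RANKL, which overlapped. The difference of the RANKL effect between C4-2 and C4-2B, a test chosen after the data were seen, was -2.28 (SE 0.71) and did not pass in edgeR (adjusted p = 0.0658). Without C4-2 RANKL mono-culture 1 it was -3.53 and called (adjusted p = 0.0459). With all libraries no member was called in that difference, against 1.65% of all genes. UGT2B11 was 3.16-fold lower in C4-2B than in C4-2 in mono-culture (log2 -1.66, SE 0.36, adjusted p = 0.00525). With counts scaled by transcript length this was -1.06 (adjusted p = 0.642). Between the mono-cultures with RANKL the difference was 0.63 (SE 0.56, adjusted p = 0.642) with a looser filter. In 22Rv1 cells it ranged from 4.29 to 7.04 CPM over the 9 libraries, and in DU145 it was above the floor in 1 of 9.

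UGT2B28 and UGT2B17 stayed under 100 counts in every library and were left out of the main test. UGT2B28 in C4-2 cells stood at 1.96, 2.36 and 1.99 CPM in mono-culture, 1.01 and 0.491 CPM with MG63 cells, 0.564 and 0.332 CPM with RANKL, and 0 and 0.179 CPM with RAW264.7 cells. The order of the cultures was that of UGT2B11, with which it shares reads, and no library of the other cultures reached the mono-cultures. In 22Rv1 it stood at 1.21, 1.64 and 1.37 CPM in mono-culture and at 0.573 and 0.302 CPM with MG63 cells, again without overlap. It had no count in any of the 9 libraries of DU145, which allows up to 0.0878 to 0.288 CPM a library.
Under edgeR's looser expression filter, which kept 9 of 10 members, UGT2B28 fell by 1.42 with MG63 cells in C4-2 (SE 0.39, adjusted p = 0.0433), where 1.44% of all 18222 genes were called, and by 1.47 in 22Rv1 (SE 0.42, adjusted p = 0.0336), where 1.74% were. With RANKL in C4-2 it fell by 2.03 (SE 0.48, adjusted p = 0.00624), where 2.28% of all genes were called. By the sum over all UGT2B genes, C4-2 fell by 1.22 with RANKL (SE 0.33, adjusted p = 0.0119) and changed by -0.43 with MG63 cells (adjusted p = 0.427). The C4-2 call of UGT2B28 with MG63 cells was lost without any of the 5 libraries compared, and the 22Rv1 call without each but mono-culture 1. The RANKL call was lost without RANKL mono-culture 2. With RANKL mono-cultures as the control, the MG63 change of UGT2B28 in C4-2 turned to 0.63 (SE 0.54, adjusted p = 0.606). UGT2B17, the other main testosterone-conjugating enzyme, ranged from 0.800 to 2.16 CPM in 22Rv1 and from 0.767 to 1.15 CPM in C4-2, which overlapped. In C4-2B it ranged from 0.249 to 1.25 CPM, and in DU145 no library rose above the floor.

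The promoters of UGT2B15 and UGT2B11 are shown because these are the conjugating genes that passed the filter and were called between lines. RefSeq promoter sequence (250 bases before to 50 after the start) was matched for 7 of the 10 members on GRCh38.p14. It was searched on both strands for TGTTTAC (a forkhead motif, found in 3.42% of 35116 promoters) and TGACNNNGC (the core of the antioxidant response element, in 13.3%). Capitals mark matches. The UGT2B15 window is chr4:68670603-68670902 and the UGT2B11 window chr4:69214699-69214998, both on the minus strand and written 5′ to 3′ on it.
UGT2B15: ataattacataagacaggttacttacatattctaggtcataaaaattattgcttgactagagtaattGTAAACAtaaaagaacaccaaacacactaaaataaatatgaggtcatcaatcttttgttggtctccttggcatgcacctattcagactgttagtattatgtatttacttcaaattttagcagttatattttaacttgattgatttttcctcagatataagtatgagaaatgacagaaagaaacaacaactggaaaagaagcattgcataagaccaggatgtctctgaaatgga
UGT2B11: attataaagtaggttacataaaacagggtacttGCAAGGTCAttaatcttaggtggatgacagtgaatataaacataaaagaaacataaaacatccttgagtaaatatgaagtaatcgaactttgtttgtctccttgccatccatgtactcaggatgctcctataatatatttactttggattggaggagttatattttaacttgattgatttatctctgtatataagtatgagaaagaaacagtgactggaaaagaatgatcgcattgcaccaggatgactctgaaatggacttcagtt
The UGT2B15 window held 1 forkhead match, and the UGT2B11 window 1 match to TGACNNNGC. The windows of AKR1C3, SRD5A1, HSD3B1 and HSD17B4 held none of these letters and that of SRD5A3 1 match to TGACNNNGC. A match describes the letters of the window and says nothing of binding.

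AKR1C3, the reductase that forms testosterone from androstenedione, ranged from 0 to 39.4 CPM over the 36 libraries. It lies at chr10:5035354-5107686 on the plus strand. In mono-culture DU145 exceeded 22Rv1 2.99-fold (log2 1.58, SE 0.27, adjusted p = 5.27e-05). The 9 libraries of 22Rv1 ranged from 10.1 to 18.1 CPM and those of C4-2 from 0 to 2.63 CPM. The gene passed the filter through DU145 and 22Rv1, and its highest count in C4-2 was 37.3. C4-2 and C4-2B, at 0.244 ± 0.211 and 0.201 ± 0.189 CPM (SD, n = 3), differed by less than their spread.

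RANKL went with a lower AKR1C3 level in DU145 cells. The mono-cultures without RANKL stood at 30.6, 26.6 and 37.4 CPM and those with RANKL at 10.5 and 9.06 CPM. With RAW264.7 cells and RANKL the level was 5.24 and 8.43 CPM, and with MG63 cells and no RANKL it was 24.2 and 39.4 CPM. All 4 libraries with RANKL lay below all 5 without it. The 4 epithelial markers moved with these groups in DU145, from sums of 1053 to 1082 CPM in mono-culture to 1780 to 1786 CPM with RANKL and 1820 to 1962 CPM with RAW264.7 cells and RANKL. Their part in the AKR1C3 difference was not tested. AKR1C3 fell by 1.58 on the log2 scale with RANKL (SE 0.29, edgeR adjusted p = 0.000173), 2.99-fold, as the 1 member of 6 called, where 5.21% of all genes were called. Against the mono-cultures with RANKL, whose depth is like that of the co-cultures, the MG63 co-cultures of DU145 were higher by 1.70 (SE 0.32, adjusted p = 0.000227), and 6.82% of all genes were called in that comparison. The part of depth was not tested.
In 22Rv1 cells AKR1C3 had the opposite order. The mono-cultures stood at 10.8, 11.1 and 10.1 CPM, those with RANKL at 16.4 and 17.3 CPM, and the RAW264.7 co-cultures at 18.1 and 17.8 CPM, with no overlap between libraries with and without RANKL. The log2 change of 0.69 with RANKL did not pass after adjustment (SE 0.28, edgeR adjusted p = 0.096). The RANKL effect in DU145 minus that in 22Rv1, tested after the data were seen, was -2.27 (SE 0.41, adjusted p = 0.000232), with 1 of 6 members and 5.64% of all genes called. It stayed past the threshold when each of the 10 libraries behind it was left out. With RANKL, AKR1C3 was thus lower in DU145 than in 22Rv1 (log2 -0.74, SE 0.21, adjusted p = 0.00454).

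MG63 cells went with a higher AKR1C3 level in C4-2 cells. The MG63 co-cultures stood at 2.63 and 1.73 CPM, the mono-cultures without RANKL at 0.356, 0.375 and 0 CPM, and those with RANKL at 0.319 and 0.120 CPM. Both co-cultures lay above every other library of C4-2, the highest of which was a RAW264.7 co-culture at 0.687 CPM. These were 37.3 and 26.6 counts with MG63 cells against 11.97, 10.4 and 0 in the mono-cultures without RANKL. The rise was 9.68-fold (log2 3.28, SE 0.65, edgeR adjusted p = 0.00396), and against the mono-cultures with RANKL it was 3.38 (SE 0.84, adjusted p = 0.00927). Of the 2.18 CPM in the co-cultures, 1.15 CPM came from a processed transcript and 0.0913 CPM from a retained intron. With protein coding transcripts alone the gene was also called (adjusted p = 0.00457), from a mono-culture level under the floor, so no fold is given. The co-cultures of C4-2 called 2 of 6 members, AKR1C3 and HSD17B4, against 1.58% of all genes, and the same 2 against the mono-cultures with RANKL, where 1.99% were called. The call was lost without the library C4-2 MG63 co-culture 1 (log2 2.99, adjusted p = 0.0717).
C4-2B cells with MG63 stood at 0.0736 and 0.811 CPM, against 0.0868, 0.419 and 0.0971 CPM in mono-culture, so that the groups overlapped. The mean MG63 effect of the BPCa lines minus that of the LPCa lines was 2.01 for AKR1C3 (SE 0.69, adjusted p = 0.0747). It passed without C4-2B mono-culture 2, C4-2B MG63 co-culture 1 or either DU145 MG63 co-culture, with adjusted p from 0.0286 to 0.0477. The MG63 effect in C4-2 exceeded that in C4-2B by 2.05 with an SE of 1.21 (edgeR adjusted p = 1.0), and no member was called in that difference, tested after the data were seen, as were 0.0744% of all genes. In 22Rv1, 13.6 and 12.4 CPM with MG63 lay above the mono-cultures, and the change of 0.40 did not pass (adjusted p = 0.42). With MG63 cells, C4-2B had 0 of 6 members called (1.22% of all genes), 22Rv1 0 of 6 (1.99%) and DU145 0 of 6 (3.7%). At an unadjusted p under 0.05, 3, 2 and 1 of 6 members passed in these lines, as did 21.05%, 33.01% and 42.24% of all genes.

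The neighbours of AKR1C3 in its gene cluster, AKR1C1 and AKR1C2, which reduce other steroids and prostaglandins, were part of the wider pathway list. In C4-2, AKR1C1 stood at 1.93 and 3.27 CPM with MG63 cells against 0.314, 0.153 and 0.180 CPM in mono-culture, and at 0.0389 and 0.0454 CPM with RANKL. It rose by 3.61 with MG63 cells (SE 0.34, adjusted p = 5.99e-06) and AKR1C2 by 1.41 (SE 0.38, adjusted p = 0.0273). In DU145 with RANKL, AKR1C1 fell by 1.17 (SE 0.39, adjusted p = 0.024) and AKR1C2 by 2.02 (SE 0.61, adjusted p = 0.0134). The 3 genes share sequence, with 5.04% of the 31-base words of AKR1C3 found in AKR1C2 and 4.91% in AKR1C1, so their values are not fully separate. The plot of the AKR1C genes sets them beside CYP11A1.

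**Figure D2:**
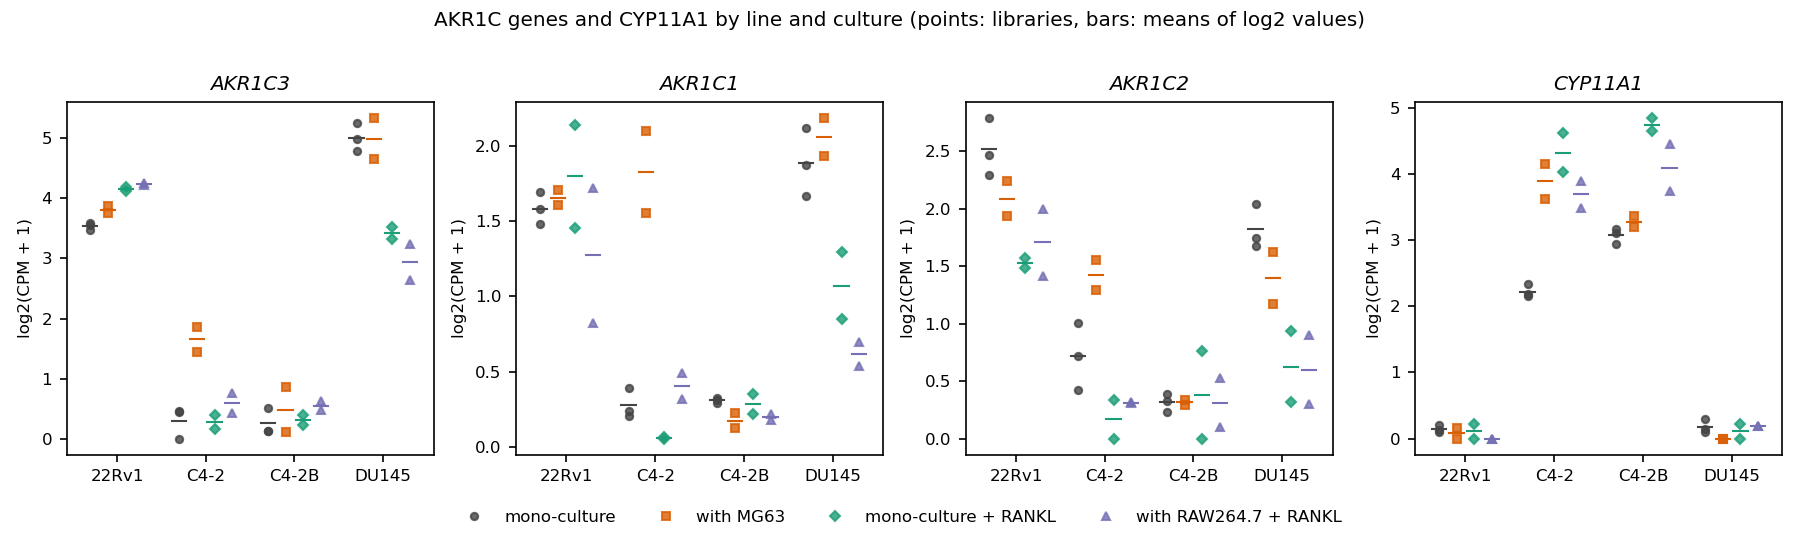
Level of AKR1C3, AKR1C1, AKR1C2 and CYP11A1 on the log2(CPM + 1) scale (y axis) in the 4 lines (x axis), with 1 point a library coloured by culture and a bar at each group mean. The MG63 co-cultures of C4-2 sit above the mono-cultures without RANKL in all 4 panels, and the DU145 libraries with RANKL sit below those without it in the AKR1C panels.

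SRD5A1, a 5α-reductase at chr5:6633343-6674386 on the plus strand, was found in every library. It ranged from 15.9 to 37.4 CPM over all 36 libraries and was highest in DU145, where mono-cultures stood at 34.8, 35.0 and 37.4 CPM. DU145 exceeded the other lines by 0.55 to 0.74 on the log2 scale in mono-culture (adjusted p = 2.8e-07 for 22Rv1), which is under 2-fold. With counts scaled by transcript length it was called against C4-2 (1.108, adjusted p = 0.000155) and C4-2B (1.083, adjusted p = 0.000182). C4-2 and C4-2B overlapped in mono-culture, at 21.5 ± 1.38 and 20.2 ± 1.47 CPM (SD, n = 3).
With MG63 cells SRD5A1 fell in both LPCa lines, by less than 2-fold. In 22Rv1 it went from 25.1, 24.4 and 24.7 CPM to 16.2 and 16.6 CPM, and in DU145 from the values above to 25.0 and 26.0 CPM, without overlap in either line. The log2 changes were -0.48 in 22Rv1 (SE 0.07, edgeR adjusted p = 0.000274) and -0.41 in DU145 (SE 0.07, adjusted p = 0.000818), which passed the adjusted p but not 2-fold. In C4-2B the MG63 co-cultures, at 17.3 and 17.2 CPM, also lay below all 3 mono-cultures, at 21.1, 18.5 and 21.05 CPM, with a change of -0.17 (SE 0.07) that did not pass after adjustment (edgeR unadjusted p = 0.033, adjusted p = 0.188). In C4-2 the change was 0.02 (SE 0.07) and did not pass. The mean MG63 effect of the BPCa lines minus that of the LPCa lines was 0.38 (SE 0.07, adjusted p = 0.0044). No member was called beyond 2-fold in that difference, against 1.38% of all genes, and 3 of 6 passed an unadjusted p under 0.05, against 27.56% of all genes. Against the mono-cultures with RANKL the changes were smaller, at -0.26 in 22Rv1 (adjusted p = 0.055) and -0.23 in DU145 (adjusted p = 0.037), and the difference was 0.28 (SE 0.09, adjusted p = 0.0272). That control also holds RANKL, with which SRD5A1 changed by -0.22 in 22Rv1 and -0.14 in DU145 (neither passed), and the part of depth was not tested.

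SRD5A3, a polyprenol reductase of the same family that serves protein glycosylation, lies at chr4:55346109-55373096 on the plus strand. DU145 was the lowest line, at 18.0, 19.8 and 18.8 CPM in mono-culture, and was below 22Rv1 by 1.02 (SE 0.13, adjusted p = 2.95e-06) and below C4-2B by 1.06 (SE 0.13, adjusted p = 1.76e-06). Both lay just past 2-fold: without DU145 mono-culture 1 or 3 the first was -0.9957 or -0.999, and without C4-2B mono-culture 2 the other was -0.9986, so neither was called then. The first was not called with counts scaled by transcript length either (-0.86), nor the other with library totals without TMM (-0.98) or in the mono-cultures with RANKL (-0.74). The other lines ranged from 30.4 to 39.6 CPM in mono-culture.
In C4-2B it stood at 55.0 and 44.3 CPM with MG63 cells against 34.1, 39.4 and 38.0 CPM in mono-culture, both above all 3. The log2 change of 0.48 did not pass (SE 0.15, adjusted p = 0.0594). Against the mono-cultures with RANKL, at 32.2 and 31.5 CPM, it was 0.61 (SE 0.15, adjusted p = 0.00986), under 2-fold. In DU145 the MG63 co-cultures stood at 19.3 and 10.5 CPM. The second of these was the lowest SRD5A3 level of all 36 libraries. These 2 libraries stood apart from each other, with epithelial markers summing to 868 and 1465 CPM. The SRD5A3 change of -0.25 (adjusted p = 0.28) was -0.79 without the first (adjusted p = 0.000617) and 0.12 without the second (adjusted p = 0.633), and that of AKR1C3 was 0.39 and -0.30, neither of which passed.

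HSD3B1 opens the route from adrenal precursors and lies at chr1:119507198-119515054 on the plus strand. It was found in the LNCaP-derived lines, above the floor in 9 of 9 libraries of C4-2 and 9 of 9 of C4-2B, in 2 of 9 of 22Rv1 and in 3 of 9 of DU145. Its highest count was 82.4, so it was left out of the main test. In C4-2B it stood at 1.94, 2.05 and 2.32 CPM in mono-culture, 5.88 and 4.44 CPM with MG63 cells, 2.17 and 1.94 CPM with RANKL, and 1.86 and 1.12 CPM with RAW264.7 cells. The MG63 co-cultures were the 2 highest libraries of the line, and the log2 change of 1.32 did not pass under the looser filter (SE 0.59, adjusted p = 0.25).
In C4-2 it stood at 0.285, 0.639 and 0.479 CPM in mono-culture and 1.73 and 2.28 CPM with RANKL, and at 3.21 and 1.83 CPM with RAW264.7 cells. All 4 libraries with RANKL lay above all 5 without it, the highest of which was an MG63 co-culture at 1.18 CPM. Under the looser filter it rose by 2.13 with RANKL (SE 0.65, adjusted p = 0.0284), and that call was lost without any of 4 of the 5 libraries compared. In mono-culture C4-2B exceeded C4-2 by 2.20 (SE 0.59, adjusted p = 0.0251), with 2 of 9 members called besides UGT2B11 under this filter, HSD3B1 and UGT2B28, against 2.05% of all genes.

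HSD17B2, which turns testosterone back to androstenedione, was near the floor. It lies at chr16:82035004-82098534 on the plus strand. Its highest level was 0.227 CPM, 32 of 36 libraries held at most 3 counts, and the other 4, all mono-cultures without RANKL, held 3.08 to 5.94.

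HSD17B4, a peroxisomal enzyme that oxidizes estradiol and shortens fatty acids, lies at chr5:119452443-119637199 on the plus strand. The MG63 co-cultures of C4-2 stood at 52.3 and 52.8 CPM, above the mono-cultures at 28.1, 25.0 and 23.0 CPM and every other library of the series. The rise was 2.23-fold (log2 1.16, SE 0.31, edgeR adjusted p = 0.0237). Against the mono-cultures with RANKL, at 16.1 and 25.6 CPM, it was 1.37 (SE 0.35, adjusted p = 0.0105). In the other lines the changes with MG63 cells were 0.69 to 0.89 and did not pass. The 22Rv1 libraries with MG63 cells stood at 17.5 and 42.5 CPM. Without the first the change in 22Rv1 was 1.41 and called (adjusted p = 0.00941), and without the second it was 0.09 (adjusted p = 0.914).
The gene's sum is divided among 25 transcripts in the table, and another 16 of GENCODE release 29 were not analysed here. Protein coding transcripts held 9.21% to 76.1% of its counts by library. In C4-2 the protein coding part stood at 12.3 ± 2.31 CPM in mono-culture (SD, n = 3) and 16.1 ± 6.80 CPM with MG63 cells (SD, n = 2), and the other transcript types at 13.1 ± 4.73 and 36.4 ± 6.47 CPM. A single retained-intron transcript, ENST00000509606, made up 12.9 CPM of the MG63 level in C4-2. It had no count in any of the 12 mono-cultures without RANKL, the deeper libraries, and was above the floor in 19 of the other 24 libraries of all lines. The part of depth in this was not tested. With protein coding transcripts alone the change was 0.47 (SE 0.47, adjusted p = 0.616), so the call was not kept in the protein coding part. It was also lost with counts scaled by transcript length (log2 1.35, adjusted p = 0.0944), without mono-culture 2 or 3, and without either MG63 co-culture, with log2 changes of 1.097 to 1.185 and adjusted p from 0.0699 to 0.13.

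**Figure D3:**
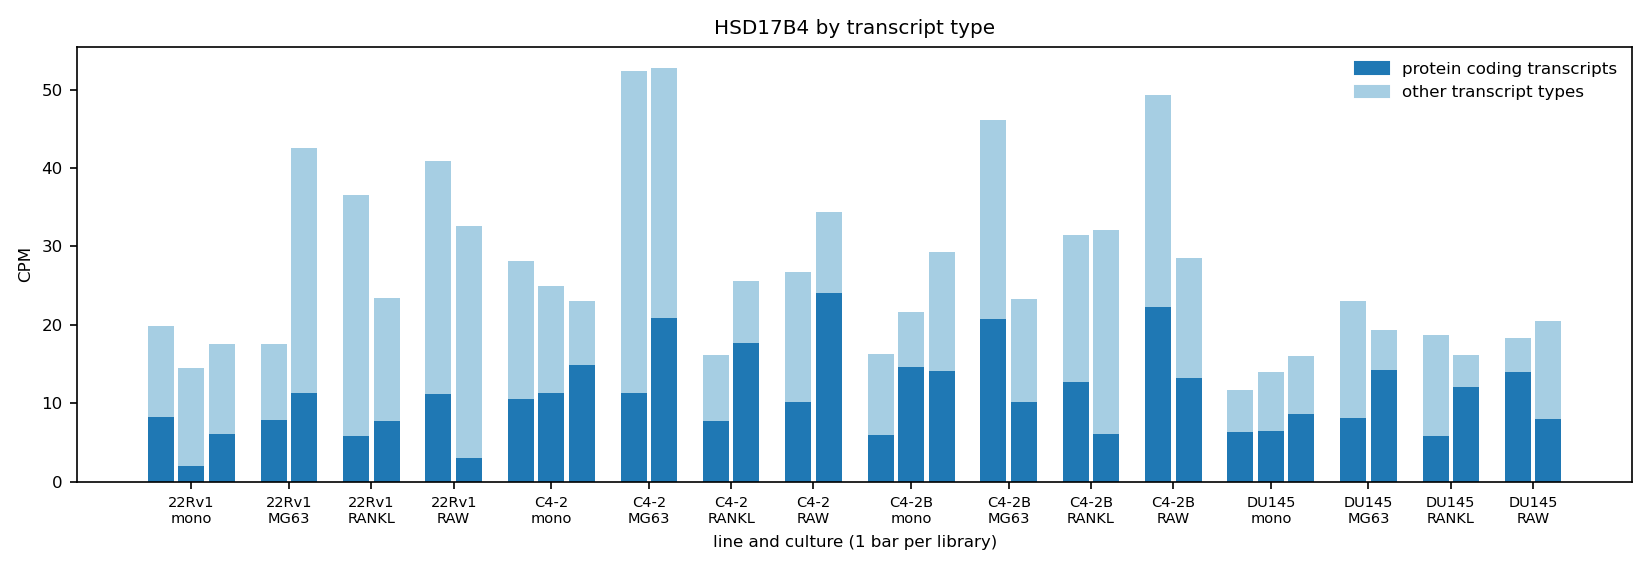
HSD17B4 level in CPM (y axis, from 0) in each library (1 bar), grouped by line and culture. The dark part of a bar is protein coding transcripts and the light part all other transcript types. The 2 MG63 co-cultures of C4-2 are the highest bars, at 52.3 and 52.8 CPM, and most of their height is the light part.

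No member was called with RAW264.7 cells beyond RANKL alone. Of the 5 members tested in these libraries, UGT2B15, AKR1C3, SRD5A1, SRD5A3 and HSD17B4, edgeR called 0 in each line, against 0% of 11525 genes in C4-2, 0.026% in C4-2B, 0.00868% in 22Rv1 and 0.0174% in DU145. DESeq2 also called none of them. At an unadjusted p under 0.05, which 6.612% of all genes passed in C4-2, 6.395% in C4-2B, 6.256% in 22Rv1 and 6.395% in DU145, 1 value passed, AKR1C3 in DU145, with a log2 change of -0.53 (SE 0.22, adjusted p = 0.7). The changes of SRD5A1 and SRD5A3 lay between -0.08 and 0.18 in all 4 lines. With RANKL alone, C4-2B had 0 of 6 members called (2.13% of all genes) and 22Rv1 0 of 6 (2.18%). At an unadjusted p under 0.05, 0 and 4 of 6 members passed in these lines, as did 27.29% and 30.5% of all genes.

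**Figure D4:**
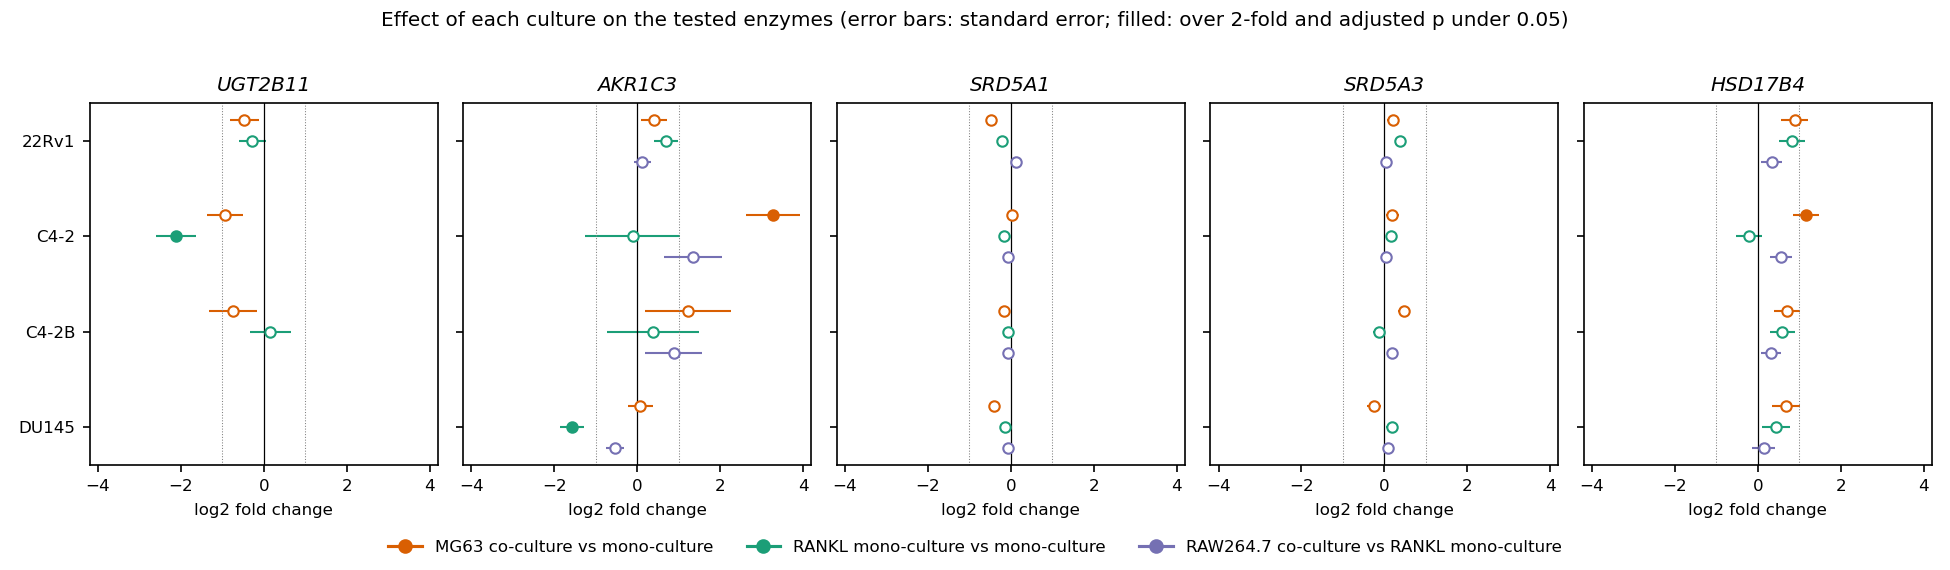
Log2 fold change (x axis) of UGT2B11, AKR1C3, SRD5A1, SRD5A3 and HSD17B4 in each line (y axis) for 3 comparisons by colour, with standard errors as bars. Filled points are over 2-fold with an adjusted p under 0.05, and dotted lines mark 2-fold. UGT2B15 is not plotted, UGT2B11 in DU145 is left out for errors above 2, and UGT2B11 was not tested with RAW264.7 cells. Filled points are AKR1C3 and HSD17B4 in C4-2 with MG63 cells, UGT2B11 in C4-2 with RANKL, and AKR1C3 in DU145 with RANKL.

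The wider list held 30 genes of androgen supply, conversion, oxidation and conjugation, of which 29 were in the table and 18 passed the filter. Besides AKR1C1 and AKR1C2, it had 1 gene called with MG63 cells in C4-2 (3 of 18 in all, against 1.58% of all genes), CYP11A1, the enzyme that makes pregnenolone from cholesterol. CYP11A1 stood at 4.04, 3.44 and 3.54 CPM in mono-cultured C4-2, at 16.7 and 11.4 CPM with MG63 and at 15.3 and 23.5 CPM with RANKL. All other cultures exceeded the mono-cultures, and it rose by 2.04 with MG63 cells (SE 0.22, adjusted p = 3.33e-05) and by 2.48 with RANKL (SE 0.24, adjusted p = 1.37e-07). In C4-2B it rose by 1.88 with RANKL (SE 0.23, adjusted p = 4.24e-06), to 24.1 and 27.7 CPM, as the 1 gene of 18 called there (2.13% of all genes).
In 22Rv1 with MG63 cells 1 of 18 was called (1.99% of all genes), SULT2B1, a sulfotransferase of precursor steroids, which stood at 1.57 and 1.91 CPM against 0.258, 0.377 and 0.449 CPM and rose by 2.39 (SE 0.28, adjusted p = 2.61e-05). In DU145 with RANKL 3 of 18 fell (5.21% of all genes were called): AKR1C1, AKR1C2 and HSD17B6, an enzyme of the back door route to dihydrotestosterone, which fell by 1.203 (SE 0.41, adjusted p = 0.0272). With MG63 cells in C4-2B and DU145, with RANKL in 22Rv1, and with RAW264.7 cells in every line, edgeR called none of the list. The gene with the highest mean CPM of each role, a scale that does not account for length, ranged over the 36 libraries from 49.5 to 554 CPM for CYB5A, from 37.1 to 421 CPM for UGDH, from 44.2 to 118.8 CPM for HSD17B10 and from 25.0 to 43.9 CPM for HSD17B1. UGDH makes the cofactor of the UGT2B enzymes, and was highest in DU145, at 272 to 421 CPM, the line with UGT2B levels at the floor.

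Of the prostate luminal genes measured beside the enzymes, KLK3, KLK2, TMPRSS2 and FKBP5 were lower in DU145 than in each of the other lines in mono-culture. KLK3, which encodes prostate-specific antigen, stood at 4603 to 5529 CPM in C4-2 and C4-2B and at 52.4 to 60.5 CPM in 22Rv1, so the order of the lines was not that of the UGT2B genes. None of the 4 was called with MG63 cells, RAW264.7 cells or RANKL in any line.
Over the 16 group means, the genes outside the family most like the UGT2B sum on the log2(CPM + 1) scale were MMP16 (Pearson r = 0.986), LSM8 (0.980), C1orf131 (0.976), PTPRN2 (0.975) and FAR2P1 (0.974), among 13451 genes. MMP16 stood at 6.48 to 11.7 CPM in 22Rv1 and at 0.0117 to 0.431 CPM in DU145. The 16 means come from 4 lines, so these values describe mainly a shared order of lines.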

How the data were processed

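RNA was sequenced by the study after poly(A) selection with a strand-specific kit. The authors deposited 1 table of estimated counts per transcript, made with kallisto, with FastQC and the build hg19 also named in the submitters' processing notes. The build of the transcript index is not given in the sources used here. Repeated lines of a transcript held identical values and were used once. Estimated counts were summed per gene symbol and rounded for tests. CPM used the total of all transcripts, and TPM used GENCODE release 29 lengths.

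edgeR 4.0.16 (R 4.3.3) was run with TMM scaling, 1 mean a line and culture, and a filter of at least 100 counts in at least 1 library. The MG63 and between-line comparisons used the 20 libraries without RANKL, the RAW264.7 comparisons the 16 with RANKL, and the RANKL comparisons all 36. Calls needed more than 2-fold and an adjusted p under 0.05. DESeq2 1.42.0, other filters, scalings and controls, a replicate block and leaving out each library were tried as alternatives. The self-test on simulated data recovered most changed genes. In that simulation all lines shared 1 mean a gene apart from the changed genes, so it does not describe genes that are low in some lines. The named genes were all 10 members, genes of the pathway list called with MG63, RAW264.7 or RANKL, the most abundant gene of each role, KLK3, KLK2, TMPRSS2 and FKBP5, and the 5 genes most like the UGT2B sum. Members and lists were chosen with earlier results of these data known. SRD5A2, the remaining gene of the pathway list, was not analysed here. A few other results are not reported here.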

Additional observations from a re-analysis of the deposited data

Results flagged for a closer look

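A test of the difference between lines or groups of lines passed for 6 named genes, which is why they are listed here. In the MG63 difference, members needed only an adjusted p under 0.05, and other genes more than 2-fold as well. For the mean MG63 effect of C4-2 and C4-2B minus that of 22Rv1 and DU145, the enzyme gene was SRD5A1, with a log2 difference of 0.38 (SE 0.07, edgeR adjusted p = 0.00442), which is under 2-fold. In the same difference CYP11A1 stood at 3.75 (SE 0.97, adjusted p = 0.0264), a value that cannot be read as a size: the gene was at or near the floor in both LPCa lines, at 0.0567 against 0.106 CPM in 22Rv1 and 0 against 0.135 CPM in DU145, and passed the filter only through the BPCa lines. Its own changes there were 2.04 in C4-2 and 0.29 in C4-2B, the second not called. SULT2B1 stood at -1.28 (SE 0.22, adjusted p = 0.00193), KLK2 at -1.02 (SE 0.19, adjusted p = 0.00394) and TMPRSS2 at -1.25 (SE 0.22, adjusted p = 0.00227). For TMPRSS2 the DU145 part was a change of 1.14 at low levels, 0.627 against 0.299 CPM (adjusted p = 0.0538), and the change in 22Rv1 was 0.38. KLK2 went from 1290, 1315 and 1379 CPM to 1066 and 1012 CPM with MG63 cells in C4-2, and from 141.5, 151.7 and 143.8 CPM to 242 and 248.5 CPM in 22Rv1.

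For the RANKL effect, AKR1C3 differed between DU145 and 22Rv1 by -2.27 (SE 0.41, edgeR adjusted p = 0.000232), a contrast chosen after the data were seen. The MG63 co-cultures of DU145, without RANKL and with a depth near that of the RANKL libraries, stood at 24.2 and 39.4 CPM, above all 4 DU145 libraries with RANKL. These co-cultures stood apart from each other, with epithelial markers summing to 868 and 1465 CPM. The part of depth in the AKR1C3 difference was not tested.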

How the results depend on the processing

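Over all lines, 2 member values were called with MG63 cells. That count was 4 with the looser expression filter, 1 with counts scaled by transcript length, 1 with protein coding transcripts alone, 1 with each line fitted alone and 4 at any fold, and it ranged from 0 to 3 when 1 library was left out. With RANKL 2 member values were called, against 5 with the looser filter, 4 with no filter, 1 with length scaling and 1 with each line alone, and 1 to 2 without 1 library. Between lines 16 were called, against 29 with the looser filter, 29 with no filter and 8 in mono-cultures with RANKL, and 15 to 17 without 1 library. UGT2B11 was called between every pair of lines in the main fit and was not tested in the fit with RANKL. The counts of 16 and 8 thus cover different members. In the difference between BPCa and LPCa lines 0 were called, against 1 at any fold, 1 at more than 2-fold and an unadjusted p under 0.05, and 0 to 1 without 1 library. With RAW264.7 cells the count stayed at 0 without any 1 library.

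Over all genes, 1141 values were called with MG63 cells, against 1775 with the RANKL mono-cultures as control, 2040 with that control and the looser filter, 463 with each line alone, 9187 at any fold, and 1029 to 2510 without 1 library, the highest without DU145 MG63 co-culture 1. In the difference between BPCa and LPCa lines 186 were called, against 96 with length scaling, 435 with the RANKL control, 1323 at any fold, 360 at more than 2-fold and an unadjusted p under 0.05, and 132 to 551 without 1 library. With RAW264.7 cells 6 were called, against 14 with no filter, 3 with length scaling, 2 with protein coding transcripts, 18 by DESeq2, 22 at any fold, 257 at more than 2-fold and an unadjusted p under 0.05, and 3 to 9 without 1 library. At any fold 53095 were called between lines and 11157 with RANKL; without 1 library, at more than 2-fold, these were 23703 to 24173 and 1481 to 1572.

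In the mono-cultures with RANKL, the AKR1C3 difference of DU145 minus 22Rv1 turned from 1.58 to -0.74, and to -0.69 with the looser filter as well, and with those libraries and the looser filter together UGT2B11 in C4-2B minus C4-2 turned from -1.66 to 0.63. The cause was not tested. Levels scaled to TMM-adjusted totals moved by more than 1 SD for 6 of 40 values, to 6.29 CPM for UGT2B11, 9.98 for AKR1C3, 23.1 for SRD5A1 and 36.1 for SRD5A3 in 22Rv1, and to 33.5 for SRD5A1 and 17.7 for SRD5A3 in DU145. TPM is another unit and was given no verdict.

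Same-numbered libraries did not deviate together (mean correlations of -0.0329, 0.0181 and 0.0186), so the numbers were not taken as pairs. With the replicate block the member counts stayed at 2 with MG63 cells, 2 with RANKL, 16 between lines and 0 in the others, and 1038 values over all genes were called with MG63 cells. UGT2B17, UGT2B28, HSD3B1 and HSD17B2 held under 100 counts in every library, the deeper mono-cultures included, and were not in the main test. The control without RANKL was the deeper one, and the contrasts between lines for RANKL and the leave-one-out checks of the low genes were chosen after the data were seen.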
